A study of Mus musculus with 16 samples.

Results

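The standard proteasome genes are the genes that encode the subunits, activators, inhibitor and assembly chaperones of the proteasome, leaving out the 3 inducible catalytic subunits Psmb8, Psmb9 and Psmb10. They were chosen by name: every gene whose symbol is Psma, Psmb, Psmc, Psmd, Psme, Psmf or Psmg followed by a number. RefSeq lists 45 such mouse genes, of which 42 were measured by a probe set assigned to a single gene symbol, among 17097 genes measured in this way. Psmc6, Psmd10 and Psme4 have no such probe set and were not analysed here. The 42 genes have 66 probe sets between them, and each gene is represented by its probe set with the highest mean signal, as are all other genes.

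The study measured RNA of quadriceps muscle from 16 mice, 1 mouse per array, in groups of 4: control mice aged 6 months (young control), Mfn2 knockout mice aged 6 months (young KO), control mice aged 22 months (old control) and Mfn2 knockout mice aged 22 months (old KO). Mfn2 encodes mitofusin 2, which joins neighbouring mitochondria by fusing their outer membranes, and the comparisons ask what its loss and what age do to the muscle transcriptome. The promoter or cell type that drove the deletion and the strain of the mice are not given in the sources used here. The labels also give each mouse a family, a term they do not define: families A and B hold only old mice and families C and D only young mice, so age and family cannot be fully told apart.

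The proteasome is the barrel-shaped protease that degrades proteins tagged with ubiquitin. Rings of alpha subunits (Psma genes) gate the barrel, rings of beta subunits (Psmb genes) hold the catalytic sites, and a regulatory particle of ATPases (Psmc genes) and non-ATPases (Psmd genes) binds, unfolds and deubiquitinates the substrate. Other activators (Psme genes) and an inhibitor (Psmf1) can dock on the same rings, and dedicated chaperones (Psmg genes for the core, Psmd5, Psmd9 and Psmd10 for the base) assist assembly. In muscle this system breaks down myofibrillar proteins during atrophy, and the transcription factors NRF1 (Nfe2l1) and NRF2 (Nfe2l2) are known to drive proteasome genes through antioxidant response elements in their promoters.

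Such an element is shown first, because it is the sequence through which the subunits are known to be regulated together. RefSeq's promoter windows (build GRCm38.p6, 250 bases before to 50 bases after the annotated start) were available for 34 of the 42 genes and were searched on both strands for the core letters TGACNNNGC. The motif was present in 4 of the 34 (11.8%), and in 14.0% of 27025 genes with a window. Stretches of 30 bases around each of the 4 matches follow, 5′ to 3′ on the gene's strand, with the matched letters in capitals.
Psmb5: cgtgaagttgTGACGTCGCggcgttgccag
Psmb6: acagaggcggactaaagagagTGACGGAGC
Psmd9: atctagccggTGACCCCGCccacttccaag
Psmd12: tctGCTGTGTCAcatttgcccccctcagac

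The Psmb5 stretch lies at chr14:54618023-54618052 on the minus strand, with the match beginning at base -47 from the start. The Psmb6 stretch lies at chr11:70525327-70525356 on the plus strand, with the match beginning at base -9. The Psmd9 stretch lies at chr5:123228149-123228178 on the plus strand, with the match beginning at base -31. In Psmd12 (chr11:107479278-107479307, plus strand) the match reads on the opposite strand and begins at base -247. Psmb5 and Psmb6 encode catalytic subunits of the core, Psmd9 an assembly chaperone of the base and Psmd12 a subunit of the lid. The CCAAT box, bound by NF-Y, was present in 12 of the 34 windows (35.3%) and in 41.1% of all genes; neither motif's matches overlapped the other's. A match describes the letters of the window, and a window with no match says nothing about the factor.

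The deposited values are log2 RMA signals, in which a difference of 1 is a 2-fold difference. Skeletal muscle markers such as Acta1 and Ckm were bright in every mouse, with means over the 10 markers of 11.7 to 12.0. Mfn2 itself read 8.66, 9.05, 8.03 and 9.45 in young control mice, 8.41, 8.49, 8.38 and 8.54 in young KO mice, 8.52, 8.67, 8.34 and 9.18 in old control mice and 8.31, 8.01, 6.32 and 8.32 in old KO mice, in the order of replicates 1 to 4. The 4 old KO mice were all below the 4 old control mice, a pattern that 0.474% of all genes showed, while the young groups overlapped. Old KO replicates 1 and 4 were only just below old control replicate 3, and old KO replicate 3 was the lowest of the 16. The difference was -0.94 ± 0.38 (SE, n = 4 against 4; limma adjusted p = 1) in old mice and -0.34 ± 0.38 (adjusted p = 1) in young mice. Whether the Mfn2 probe set lies in the deleted part of the gene is not given in the sources used here. With 16 arrays, their number limits the precision of every value, and in whole muscle fewer cells of a type and less RNA per cell cannot be told apart.

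Most standard proteasome genes gave a strong signal in muscle. Signals of different probe sets depend on how each probe binds and do not rank the transcripts, so the ranges below describe the array only. Mean log2 signals ran from 9.19 to 10.3 for the 5 base ATPases, and from 8.35 to 10.3 for the 11 non-ATPases of base and lid. The beta ring reached 10.7 with Psmb3, a structural subunit, which had the highest mean of the 42. The lowest means belonged to Psmb11 (3.47), a catalytic subunit known from the thymus cortex, and Psma8 (3.96), an alpha subunit known from testis. The assembly chaperones had means of 6.18 (Psmd9) and 6.70 (Psmd5) for the base and of 5.94 to 7.27 for the 4 of the core. The activators Psme1, Psme2 and Psme3 averaged 8.52, 6.60 and 8.52, and the inhibitor Psmf1 averaged 6.80.

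No standard proteasome gene passed an adjusted p of 0.05 in any of 7 comparisons, by limma fitted to all 17097 genes with Benjamini-Hochberg adjustment. In the genotype comparison of young mice 16 of the 42 were higher and 26 lower in KO, with a median difference of -0.014 against -0.0056 over all genes. Of all genes 0% were called in that comparison, and 1.7% had an unadjusted p under 0.05, as did 1 of the 42 (Psmd4). In old mice 15 were higher and 27 lower in KO, with a median of -0.020 against -0.0041 over all genes. There, too, 0% of all genes were called, and 0 of the 42 had an unadjusted p under 0.05 (1.14% of all genes).

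Differences with age were also small. Between 6 and 22 months 27 of the 42 were higher and 15 lower in control mice, with a median of 0.0099 (all genes -0.0082). Of all genes 0% were called, and 1 of the 42 (Psmb11) had an unadjusted p under 0.05, against 2.12% of all genes. In KO mice 18 were higher and 24 lower with age, with a median of -0.0053 (all genes -0.0083). Of all genes 0.0175% were called there, and 0 of the 42 had an unadjusted p under 0.05 (2.59% of all genes). These 4 comparisons share groups of mice, so their counts are not independent of each other.

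Pooling the ages or the genotypes gave no call among the 42 either. Over both ages 13 of the 42 were higher and 29 lower in KO, with a median of -0.022 (all genes -0.0050; 0% of all genes called; 0 of the 42 and 1.55% of all genes at an unadjusted p under 0.05). Over both genotypes 23 were higher and 19 lower in old mice, with a median of 0.0011 (all genes -0.0091; 0.0585% of all genes called). There 3 of the 42 (Psmb11, Psmc1 and Psmg1) had an unadjusted p under 0.05, a share of 7.14% against 3.52% of all genes. In these pooled comparisons, of 8 mice against 8, 0 of the 42 had groups that did not overlap (by genotype 0% of all genes higher and 0.00585% lower, by age 0.0643% higher and 0.0409% lower). The interaction of age and genotype called 0% of all genes, and 0 of the 42 had an unadjusted p under 0.05 (1.13% of all genes).

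Arrays that carry the same replicate number deviated together, so each comparison was fitted again with that number as a blocking factor (the block). With it again 0 of the 42 passed in each of the 7 comparisons, and those with an unadjusted p under 0.05 numbered 1, 0, 2 and 3 in the comparisons of genotype in young mice, genotype in old mice, age in control mice and age in KO mice. The shares of all genes at that threshold were 9.43%, 6.62%, 9.64% and 10.2%. Over both ages 3 of the 42 (Psmb6, Psmd4 and Psme2) and 8.47% of all genes were past it for genotype, over both genotypes 5 of the 42 (Psmb11, Psmc1, Psmd3, Psmd11 and Psmg1) and 11.7% for age, and 0 and 7.24% for the interaction. With the block the adjusted threshold was passed with age by 0.0468% of all genes in control mice, by 0.0234% in KO mice and by 0.579% over both genotypes, and by 0% in the other 4 comparisons.

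A p that misses the threshold does not show that levels were equal, so the intervals matter here. With the block, the 95% interval lay within 1.5-fold in either direction for 42 of the 42 genes in young mice by genotype, for 41 in old mice by genotype (all but Psme2) and for 42 with age in either genotype. Of all genes between 93.7% and 95.6% had such an interval. Within the narrower limit of 1.2-fold lay 32, 30, 32 and 28 of the 42, against 42.9%, 45%, 42.8% and 43.1% of all genes. Without the block the counts within 1.5-fold were 40, 38, 39 and 37 of the 42, against 74.3%, 75.7%, 74% and 73.4% of all genes. Those within 1.2-fold were then 24, 24, 24 and 22 of the 42, against 14.1%, 14.7%, 14.3% and 14.1%. The median SE of a difference between groups was 0.086 for the 42 genes and 0.16 for all genes without the block, and 0.064 and 0.092 with it.

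**Figure D1:**
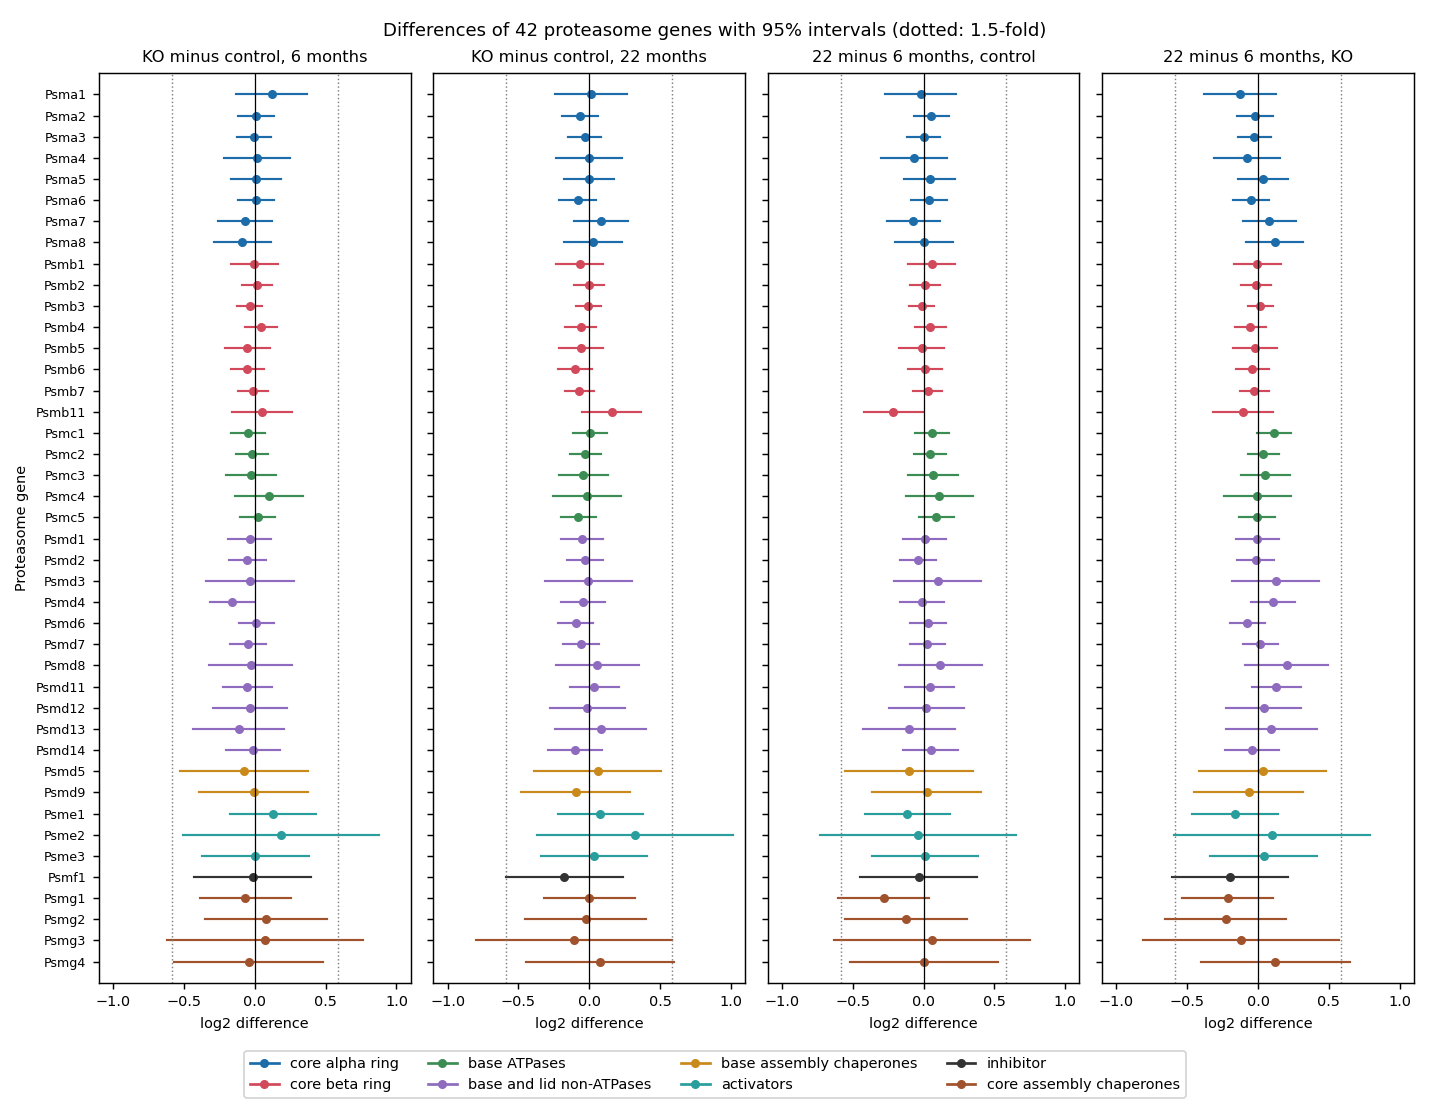
Log2 difference of each of the 42 genes in the 4 comparisons between groups (horizontal axis), with 95% intervals from limma without the block; each row is a gene, coloured by role, and dotted lines mark 1.5-fold. Most points sit close to 0, and the widest intervals belong to Psme2 and Psmg3.

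In the core's alpha rings, which gate the entry of substrate, the 8 genes differed by between -0.088 and 0.12 with genotype in young mice and between -0.082 and 0.084 in old mice. Psma1 read 9.31, 9.27, 8.93 and 8.96 in young control mice, 9.34, 9.31, 9.22 and 9.08 in young KO mice, 9.18, 9.30, 8.88 and 9.04 in old control mice and 9.18, 9.28, 8.89 and 9.10 in old KO mice. In every group replicates 3 and 4 were below replicates 1 and 2, and the groups overlapped. Its genotype difference in young mice was 0.12 ± 0.12 (SE; unadjusted p = 0.328, and 0.101 with the block).

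Psma7 read 9.84, 9.74, 9.78 and 9.69 in young control mice, 9.91, 9.78, 9.56 and 9.52 in young KO mice, 9.84, 9.73, 9.54 and 9.64 in old control mice and 9.78, 9.84, 9.81 and 9.66 in old KO mice. All 4 groups overlapped, and the largest spread was among young KO mice. Its interaction of age and genotype was 0.15 ± 0.12 (SE; unadjusted p = 0.239). Psma8 read 3.93, 3.91, 4.13 and 3.93 in young control mice, 3.83, 3.92, 3.86 and 3.94 in young KO mice, 3.84, 3.87, 4.10 and 4.11 in old control mice and 4.01, 3.83, 4.21 and 3.98 in old KO mice. These are signals at the low end of the array, and the groups overlapped.

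The beta rings hold the protease itself, with Psmb5, Psmb6 and Psmb7 as its chymotrypsin-like, caspase-like and trypsin-like subunits. Psmb5 read 10.21, 10.24, 10.13 and 10.19 in young control mice, 10.29, 10.15, 10.10 and 10.02 in young KO mice, 10.23, 10.28, 10.14 and 10.05 in old control mice and 10.13, 10.25, 10.15 and 9.94 in old KO mice. The groups overlapped throughout. The KO minus control difference was -0.052 ± 0.074 (SE; 95% interval -0.21 to 0.10) in young mice and -0.060 ± 0.074 (-0.22 to 0.097) in old mice.

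Psmb6 read 10.30, 10.25, 10.23 and 10.26 in young control mice, 10.31, 10.20, 10.07 and 10.24 in young KO mice, 10.30, 10.32, 10.20 and 10.25 in old control mice and 10.12, 10.27, 10.12 and 10.15 in old KO mice. Of the 4 old KO mice, 3 were below every old control mouse, and old KO replicate 2 lay within their range. The difference in old mice was -0.10 ± 0.056 (SE; unadjusted p = 0.0885; lower in KO in 4 of 4 replicate numbers). Over both ages it was -0.077 ± 0.039 (unadjusted p = 0.068, and 0.0464 with the block, where adjusted p = 0.578), lower in 7 of 8 pairs of one number, and the KO level was 94.8% of the control level.

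Psmb7 read 10.51, 10.47, 10.60 and 10.41 in young control mice, 10.51, 10.38, 10.55 and 10.49 in young KO mice, 10.57, 10.54, 10.50 and 10.49 in old control mice and 10.47, 10.48, 10.45 and 10.43 in old KO mice. It was the single gene of the 42 whose old KO mice were all lower than all old control mice, a pattern that 0.474% of all genes showed in that direction (0.433% in the other, in which 0 of the 42 showed it). The gap was narrow, at 10.48 against 10.49, and the difference was -0.069 ± 0.049 (SE; unadjusted p = 0.178). In the comparison of young mice, and in that of control mice by age, 0 of the 42 had groups that did not overlap; of all genes 0.661% and 0.696% did so among the young, higher and lower, and 0.749% and 0.772% with age.

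Psmb3 read 10.74, 10.71, 10.77 and 10.65 in young control mice, 10.70, 10.68, 10.71 and 10.64 in young KO mice, 10.71, 10.73, 10.69 and 10.69 in old control mice and 10.60, 10.76, 10.70 and 10.74 in old KO mice. It had the smallest spread within groups of the 42, with a pooled SD of 0.048. Psmb4, a structural beta subunit, read 10.21, 10.23, 10.23 and 10.24 in young control mice, 10.34, 10.20, 10.23 and 10.30 in young KO mice, 10.29, 10.35, 10.19 and 10.26 in old control mice and 10.14, 10.32, 10.23 and 10.18 in old KO mice. Its groups overlapped, and its interaction was -0.10 ± 0.073 (SE; unadjusted p = 0.18).

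Psmb11 read 3.58, 3.61, 3.47 and 3.45 in young control mice, 3.52, 3.40, 3.69 and 3.71 in young KO mice, 3.50, 3.37, 3.37 and 3.03 in old control mice and 3.47, 3.57, 3.44 and 3.42 in old KO mice. Old control replicate 4 was the lowest of the 16. Its difference with age was -0.21 ± 0.099 (SE; unadjusted p = 0.0476, adjusted p = 1) in control mice and -0.10 ± 0.099 in KO mice. Without old control replicate 4 the difference in control mice was -0.12. At this signal the array is near its floor.

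The 3 inducible subunits replace Psmb5, Psmb6 and Psmb7 in the immunoproteasome, so each was set against the subunit it replaces. Psmb8 read 7.21, 6.94, 5.76 and 5.86 in young control mice, 6.75, 6.70, 6.27 and 6.26 in young KO mice, 7.18, 7.02, 5.56 and 6.05 in old control mice and 8.44, 7.21, 7.69 and 6.43 in old KO mice. Psmb9 read 5.90, 5.77, 5.43 and 5.53 in young control mice, 5.59, 5.39, 5.60 and 5.74 in young KO mice, 5.86, 5.63, 5.52 and 5.57 in old control mice and 6.87, 5.93, 6.42 and 5.75 in old KO mice. Psmb10 read 7.19, 7.27, 6.94 and 6.99 in young control mice, 7.23, 7.20, 7.02 and 6.86 in young KO mice, 6.93, 7.30, 6.73 and 6.52 in old control mice and 7.62, 7.22, 7.42 and 6.75 in old KO mice. Old KO replicates 1 and 3 had the highest Psmb8, Psmb9 and Psmb10 of the 16 mice, while their Psmb5, Psmb6 and Psmb7 lay within or below the range of old control mice.

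Within each array the log2 signal of the standard subunit was subtracted from that of its inducible partner, and the groups were compared by an exact two-sided permutation test over 70 splits, with p adjusted over 12 tests. Psmb9 minus Psmb6 averaged -3.93 ± 0.55 (SD, n = 4) in old KO mice and -4.62 ± 0.12 in old control mice, a difference of 0.70 (exact p = 0.0286, the smallest 4 against 4 can give; adjusted p = 0.172; higher in 4 of 4 numbers). Permuted within replicate numbers, the exact p was 0.125, the smallest that test can give. Against young KO mice (-4.63 ± 0.17) the difference was also 0.70 (exact p = 0.0286, adjusted 0.172), and both comparisons share the old KO mice. Neither difference passed after adjustment. With the mean of all probe sets of a gene in place of the brightest, they were 0.44 (exact p = 0.0286, adjusted 0.172) and 0.47 (exact p = 0.0571, adjusted 0.228).

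Psmb8 minus Psmb5 averaged -2.68 ± 0.78 (SD, n = 4) in old KO mice and -3.73 ± 0.70 in old control mice, a difference of 1.05 (exact p = 0.114, adjusted 0.342; higher in 4 of 4 numbers). It was 0.97 against young KO mice (exact p = 0.0571, adjusted 0.228). With the mean of probe sets these were 0.64 (exact p = 0.0857, adjusted 0.257) and 0.58 (exact p = 0.0286, adjusted 0.172). The other probe set of Psmb8 that enters this mean averaged 2.93, near the array's floor. Psmb10 minus Psmb7 differed by 0.45 in old mice by genotype (exact p = 0.143, adjusted 0.343) and by 0.20 with age in KO mice (exact p = 0.371, adjusted 0.636; higher in 2 of 4 numbers). Leaving out old KO replicate 1 moved the genotype differences in old mice to 0.48 for the Psmb9 pair, 0.72 for the Psmb8 pair and 0.33 for the Psmb10 pair. It moved the differences with age in KO mice to 0.48, 0.64 and 0.081. In young mice by genotype and in control mice by age, the 3 pairs differed by between -0.26 and 0.10, with exact p of at least 0.229.

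Of the 3 inducible subunits alone, limma called 0 in old mice by genotype, while 2 had an unadjusted p under 0.05 (1.14% of all genes) and 3 with the block (6.62%). Psmb8 differed there by 0.99 ± 0.44 (SE) and Psmb9 by 0.60 ± 0.20. With the block limma gave SEs of 0.26 and 0.16, unadjusted p of 0.00184 and 0.00221, and an adjusted p of 0.637 for both. Neither passed the adjusted threshold in either fit. The other probe sets of Psmb9 differed by 0.48 and -0.073 in the same comparison. Macrophage markers were higher in old KO than in old control mice for 8 of 11, with a median of 0.12 and summed log2 levels of 9.92 to 10.6 against 9.70 to 10.7. T cell markers averaged between 4.21 and 4.70 in each old mouse, with Cd3e at a mean of 3.37, and their part and that of macrophages in the differences was not tested.

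**Figure D2:**
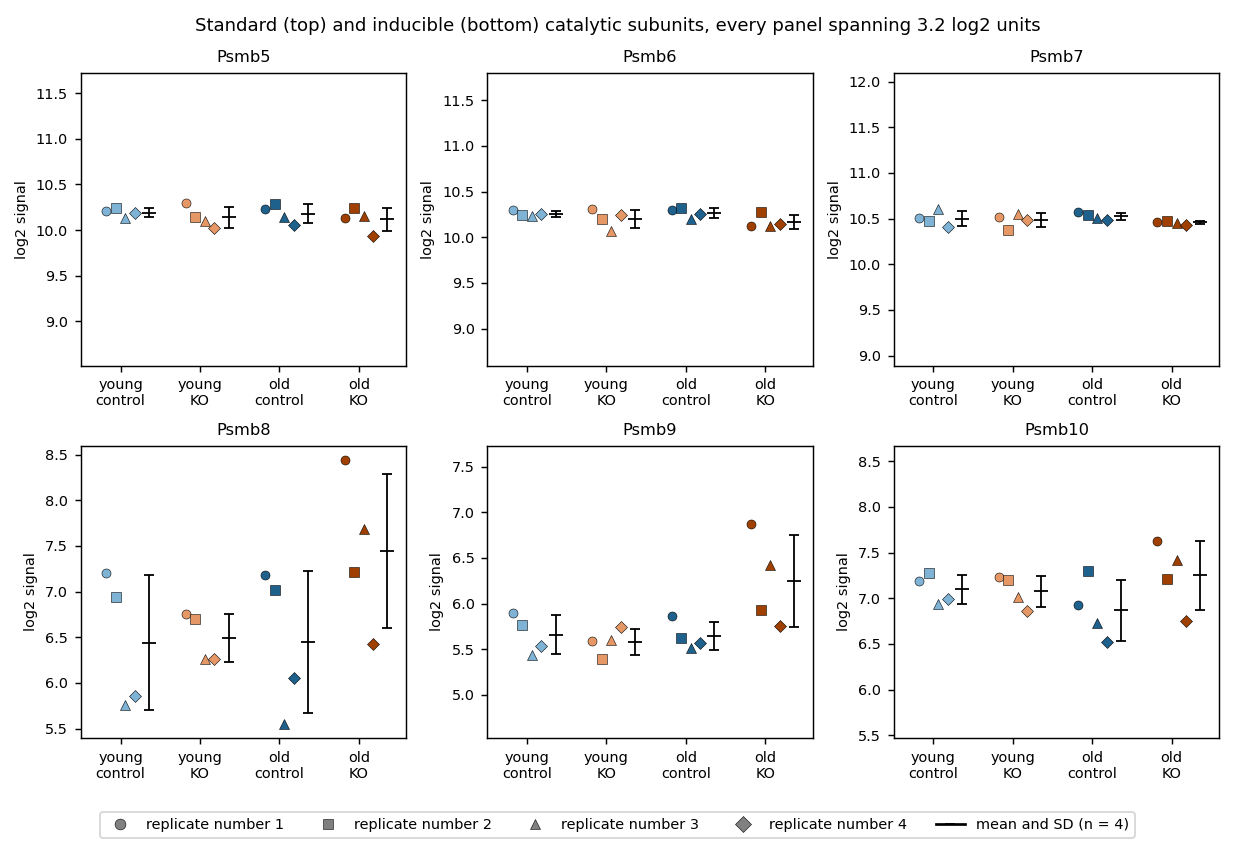
Log2 signal per array (vertical axis, every panel spanning 3.2 log2 units) of the standard catalytic subunits Psmb5, Psmb6 and Psmb7 above the inducible Psmb8, Psmb9 and Psmb10 that replace them; symbols give the replicate number, and bars the mean and SD of 4 mice. Over the 16 mice Psmb5 runs from 9.94 to 10.29 and Psmb8 from 5.56 to 8.44.

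The base ATPases form the ring that unfolds substrates and feeds them into the core. All 5 measured were higher in old control than in young control mice, by between 0.044 and 0.11, and 0 of them passed the test or had an unadjusted p under 0.05. With age in KO mice 3 of the 5 were higher and 2 lower, by between -0.0057 and 0.11. Psmc1 read 9.71, 9.65, 9.67 and 9.68 in young control mice, 9.67, 9.64, 9.58 and 9.64 in young KO mice, 9.79, 9.78, 9.63 and 9.76 in old control mice and 9.69, 9.78, 9.68 and 9.82 in old KO mice. All 4 old KO mice were above all 4 young KO mice, which held for 1 of the 42 genes in that direction and for 0.924% of all genes; 0 of the 42 were wholly lower (0.871% of all genes).

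The difference of Psmc1 with age in KO mice was 0.11 ± 0.056 (SE; unadjusted p = 0.0658, and 0.0467 with the block, where adjusted p = 0.48). Over both genotypes it was 0.087 ± 0.040 (unadjusted p = 0.0456, adjusted p = 1; higher in 7 of 8 pairs of one number), or 6.20% more. The other probe set of Psmc1 gave -0.095 with age in KO mice and -0.014 over both genotypes. Its mean of 2.95 is near the array's floor. Psmc4 read 9.51, 9.55, 9.14 and 9.27 in young control mice, 9.54, 9.52, 9.22 and 9.60 in young KO mice, 9.63, 9.49, 9.32 and 9.50 in old control mice and 9.44, 9.54, 9.28 and 9.61 in old KO mice. Replicate 3 was the lowest of each group. Psmc4's genotype difference in young mice was 0.10 ± 0.11 (SE), while its other probe set gave -0.080. With age in control mice the probe sets gave 0.11 and -0.0037.

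Psmc5 read 9.68, 9.69, 9.80 and 9.80 in young control mice, 9.73, 9.71, 9.84 and 9.76 in young KO mice, 9.88, 9.88, 9.77 and 9.80 in old control mice and 9.65, 9.81, 9.75 and 9.82 in old KO mice. Young and old groups overlapped. Its difference with age was 0.090 ± 0.059 (SE; unadjusted p = 0.145) in control mice and -0.0057 ± 0.059 in KO mice, and the interaction was -0.096 ± 0.083 (unadjusted p = 0.265).

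Among the 11 non-ATPases of base and lid, which recognise ubiquitin chains and remove them, 10 were lower in young KO than in young control mice, by up to 0.16, and 8 were lower in old KO mice. Psmd4, a ubiquitin receptor of the base, read 9.41, 9.41, 9.46 and 9.50 in young control mice, 9.45, 9.29, 9.11 and 9.29 in young KO mice, 9.51, 9.41, 9.33 and 9.49 in old control mice and 9.38, 9.38, 9.36 and 9.43 in old KO mice. Young KO replicates 2, 3 and 4 were below every young control mouse and replicate 1 was not. The difference in young mice was -0.16 ± 0.073 (SE; 95% interval -0.32 to -0.0050; unadjusted p = 0.0439, adjusted p = 1), and the KO level was 89.5% of the control level. With the block its p was 0.0224 (adjusted 0.474), and without young KO replicate 3 the difference was -0.10.

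The other 2 probe sets of Psmd4 gave -0.10 and -0.080 in young mice, so all 3 had the same sign there. In old mice Psmd4 differed by -0.045 ± 0.073 (SE), and the interaction was 0.12 ± 0.10 (unadjusted p = 0.281). Over both ages the difference was -0.10 ± 0.052 (unadjusted p = 0.0652, with the block unadjusted p = 0.0359 and adjusted p = 0.549). The other 2 probe sets gave -0.0024 and 0.10 in old mice, and -0.051 and 0.011 over both ages, so the signs differed there.

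Psmd6, a lid subunit, read 10.11, 10.04, 10.17 and 10.06 in young control mice, 10.14, 10.09, 10.09 and 10.09 in young KO mice, 10.24, 10.12, 9.99 and 10.16 in old control mice and 10.03, 10.05, 9.93 and 10.11 in old KO mice. In old mice KO was lower in 4 of 4 replicate numbers, by -0.095 ± 0.059 (SE; unadjusted p = 0.126), with overlapping groups. Psmd7, a lid subunit that pairs with the deubiquitinase Psmd14, read 9.92, 9.91, 10.06 and 9.93 in young control mice, 9.99, 9.87, 9.87 and 9.91 in young KO mice, 10.07, 9.94, 9.91 and 10.02 in old control mice and 10.01, 9.96, 9.86 and 9.87 in old KO mice. Its difference with genotype over both ages was -0.053 ± 0.042 (SE; unadjusted p = 0.225).

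Psmd8, another lid subunit, read 9.49, 9.57, 9.48 and 8.95 in young control mice, 9.56, 9.24, 9.08 and 9.51 in young KO mice, 9.49, 9.29, 9.45 and 9.72 in old control mice and 9.48, 9.56, 9.49 and 9.66 in old KO mice. Young control replicate 4 stood at 8.95, with the next mouse of its group at 9.48. The difference with age over both genotypes was 0.16 ± 0.098 (SE; unadjusted p = 0.122), higher in 4 of 8 pairs of one number.

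Psmd11, the lid subunit Rpn6 that clamps lid to core, read 9.80, 9.66, 9.53 and 9.59 in young control mice, 9.71, 9.60, 9.46 and 9.60 in young KO mice, 9.88, 9.64, 9.60 and 9.62 in old control mice and 9.83, 9.74, 9.66 and 9.66 in old KO mice. In each group replicate 1 was the highest, and young and old mice overlapped. Old KO mice were above young KO mice in 4 of 4 replicate numbers, by 0.13 ± 0.082 (SE; unadjusted p = 0.131, and 0.0201 with the block, where adjusted p = 0.392). Without young KO replicate 3 the difference was 0.085 without the block and 0.11 with it. Its other 4 probe sets gave 0.23, 0.0076, 0.18 and 0.28 in the same comparison. Psmd13, a lid subunit, read 8.54, 8.57, 8.24 and 8.34 in young control mice, 8.45, 8.57, 8.06 and 8.15 in young KO mice, 8.50, 8.55, 7.87 and 8.37 in old control mice and 8.33, 8.51, 8.35 and 8.41 in old KO mice. Old control replicate 3 was the lowest of the 16, and the interaction was 0.20 ± 0.21 (SE; unadjusted p = 0.375).

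Psme1 and Psme2 encode the activator PA28, which opens the core's gate and is known to be induced by interferon with the immunoproteasome. Psme1 read 8.66, 8.81, 8.17 and 8.45 in young control mice, 8.79, 8.69, 8.53 and 8.60 in young KO mice, 8.35, 8.67, 8.31 and 8.30 in old control mice and 8.65, 8.57, 8.55 and 8.19 in old KO mice. Psme2 read 6.89, 6.95, 5.75 and 6.39 in young control mice, 7.04, 6.89, 6.23 and 6.56 in young KO mice, 6.72, 7.10, 5.82 and 6.19 in old control mice and 7.25, 7.04, 6.71 and 6.10 in old KO mice. For Psme2 replicates 1 and 2 were above replicates 3 and 4 in every group, and the groups overlapped for both genes.

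Psme2 had the largest genotype difference of the 42 in old mice, 0.32 ± 0.33 (SE; 95% interval -0.37 to 1.01; unadjusted p = 0.339). With the block its SE was 0.16 and its p 0.067 (adjusted 0.778), and leaving out 1 mouse at a time moved the blocked difference between 0.14 and 0.49. Leaving out old control replicate 3 brought the unblocked difference to 0.11. KO was higher in 2 of 4 replicate numbers. Over both ages Psme2 differed by 0.25 ± 0.23 (SE; with the block unadjusted p = 0.0439 and adjusted p = 0.569) and Psme1 by 0.10 ± 0.10 (with the block unadjusted p = 0.173). Psme1's difference with age over both genotypes was -0.14 ± 0.10 (unadjusted p = 0.185).

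Psme1 and Psme2 varied together from mouse to mouse, with r = 0.92 across the 16 arrays after group means were removed, and 0.87 after the means of replicate numbers were removed as well. Psme2 also varied with Psmb8 (r = 0.88 and 0.81), Psmb9 (0.53 and 0.76) and Psmb10 (0.81 and 0.88). Among 40 of the 42 genes, those with a mean above 5, the median r over 780 pairs was 0.42 (0.23 with replicate numbers removed). These arrays share amplification and normalization, and the correlations are a description. The core letters of the interferon-stimulated response element are GAAA, any 2 bases, GAAA, on either strand. They were present in the windows of 5 of the 34 genes (14.7%, against 4.0% of 27025 genes). These were Psmb3, Psmd4, Psmd9, Psme1 and Psmg4, and Psme2 was not among them. Of the 3 inducible subunits, 0 had the motif. This motif was chosen after the values had been seen.

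Assembly of the core begins with the chaperone pair Psmg1 and Psmg2, which joins the alpha subunits into a ring. Psmg1 read 7.53, 7.49, 7.28 and 7.39 in young control mice, 7.41, 7.68, 7.12 and 7.22 in young KO mice, 7.20, 7.43, 6.90 and 7.04 in old control mice and 7.16, 7.40, 7.02 and 6.99 in old KO mice. In each genotype the old mouse was below the young mouse of the same replicate number in 4 of 4 numbers, although young and old groups overlapped in both genotypes. The group means were 7.42 ± 0.11 and 7.36 ± 0.25 (SD, n = 4) in young control and KO mice and 7.14 ± 0.23 and 7.14 ± 0.19 in old control and KO mice.

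Over both genotypes Psmg1 differed with age by -0.25 ± 0.11 (SE; 95% interval -0.48 to -0.021; unadjusted p = 0.0345, adjusted p = 1), and the old level was 84.2% of the young level. With the replicate block the SE was 0.057, the p 0.000621 and the adjusted p 0.0708, the smallest of the 42 genes in any of the 7 comparisons. The difference was -0.28 ± 0.15 in control mice (with the block unadjusted p = 0.00338 and adjusted p = 0.288) and -0.21 ± 0.15 in KO mice (with the block unadjusted p = 0.0182 and adjusted p = 0.39), and the interaction was 0.068 ± 0.21 (unadjusted p = 0.756). Without the block, the difference in KO mice was -0.11 without young KO replicate 2. Genotype differences of Psmg1 were -0.067 ± 0.15 in young mice and 0.0012 ± 0.15 in old mice.

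The call on Psmg1 depended on the fit. With the block and family as a covariate the difference was -0.29 with an adjusted p of 0.693. With the block and testing confined to genes above the median level, an alternative chosen after seeing the data, the adjusted p was 0.0467, and with the block and without young control replicate 2 it was 0.0369. Leaving out any other single mouse, with the block, gave adjusted p from 0.0938 to 0.159. Blocked fits gave 0.228 without the replicates numbered 3, and 0.624 with the pyruvate carboxylase control signal as a covariate. Markers of other cell types also differed with age over both genotypes. Macrophage markers were higher in old mice for 11 of 11, with a median of 0.56, 1 called with the block, and summed log2 levels of 9.17 to 10.2 in young and 9.70 to 10.7 in old mice. Granulocyte and mast cell markers were higher for 5 of 5, with a median of 0.45 and 2 called with the block, and red blood cell markers for 2 of 2, with a median of 0.58. Of all genes 0.579% were called in this comparison with the block and 0.0585% without it. Endothelium markers were lower for 5 of 5, with a median of -0.089. Fibroblast markers were mixed, with 2 of 5 higher, 3 lower and a median of -0.21. The 2 called lower, with and without the block, were Col1a1 and Col3a1. Their summed levels were 11.8 to 12.4 in young and 11.3 to 11.8 in old mice, sums in which the brightest marker, Col3a1 (mean 10.4), weighs most. Muscle markers had a median of -0.014. The part of these cells in the Psmg1 difference was not tested.

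Psmg2 differed with age by -0.18 ± 0.14 (SE; with the block unadjusted p = 0.0583 and adjusted p = 0.451), lower in 5 of 8 pairs of one number, and its other probe set gave -0.20. The remaining core chaperones Psmg3 and Psmg4 differed by -0.030 and 0.063. Pomp, a chaperone of beta ring assembly outside the naming rule, averaged 9.57 ± 0.12 (SD, n = 4) in young control, 9.78 ± 0.095 in young KO, 9.86 ± 0.15 in old control and 9.84 ± 0.23 in old KO mice. In control mice old exceeded young in 4 of 4 replicate numbers, by 0.29 ± 0.11 (SE; with the block SE 0.089, unadjusted p = 0.00593 and adjusted p = 0.344). Among KO mice the difference was 0.059 ± 0.11.

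**Figure D3:**
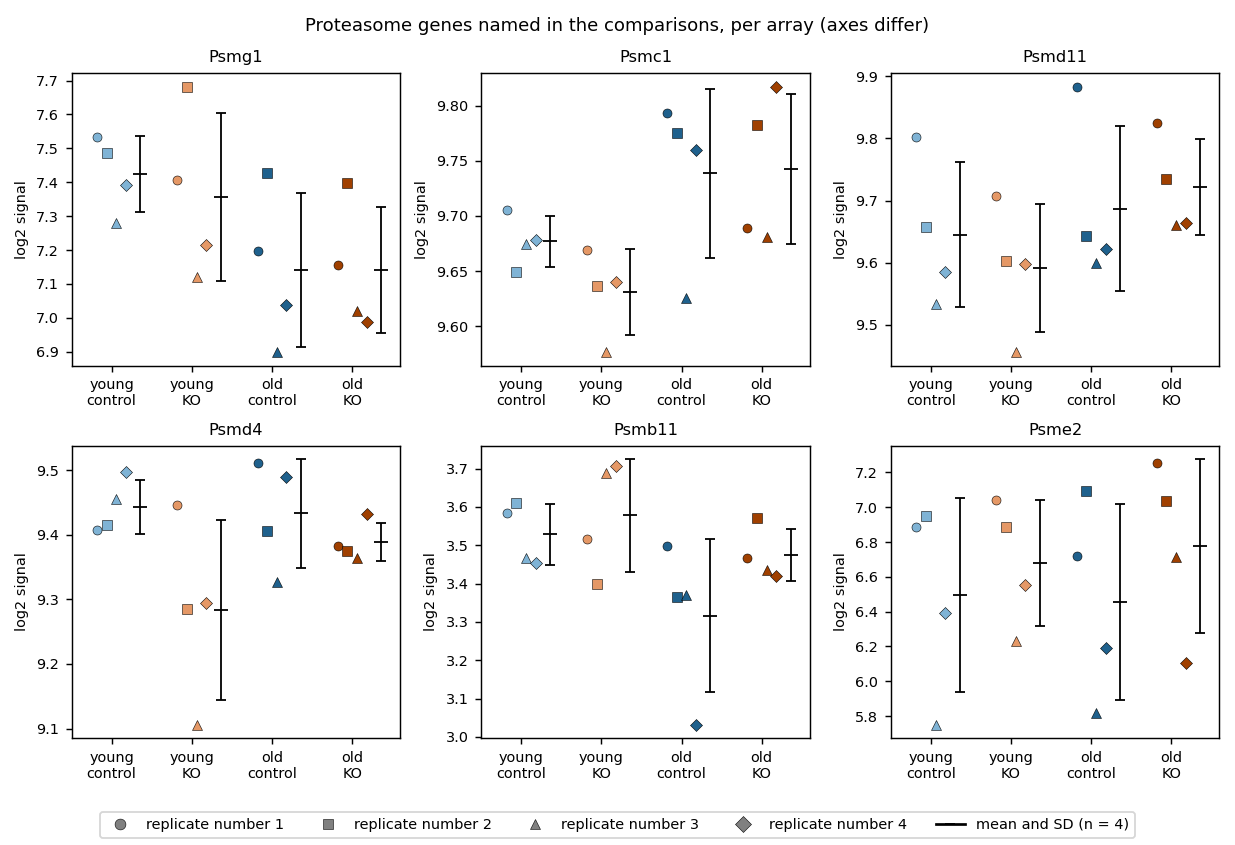
Log2 signal per array (vertical axis, scales differ between panels) of 6 genes named in the comparisons; symbols give the replicate number, and bars the mean and SD of 4 mice. Psmg1 is lower in old mice at each replicate number, Psmc1 is higher in all old KO than in all young KO mice, and Psme2 separates replicates 1 and 2 from 3 and 4 in every group.

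Some of the genes also differed by replicate number. Averaged over the 16 mice, replicates 1 and 2 exceeded replicates 3 and 4 by a median of 0.085 for the 42 genes and 0.083 for all genes, and the range over the 42 was -0.14 to 0.79. In 7 of the 42 (16.7%, against 13.9% of all genes) the 8 mice of replicates 1 and 2 were all above the 8 of replicates 3 and 4: Psmd3, Psmd12, Psmd5, Psme2, Psmf1, Psmg3 and Psmg4. In 0 of the 42, and in 12.2% of all genes, they were all below. The labels do not say what the number stands for.

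Above a mean signal of 5 that difference was smaller at higher signal levels. The 18 genes with a mean above 9.5 had a median difference of 0.033 and a median SD within groups of 0.069, and all genes at that level had 0.054 and 0.10. The 14 genes between 7.5 and 9.5 had 0.18 and 0.17 (all genes 0.27 and 0.23). The 8 genes between 5 and 7.5, which are the chaperones, Psme2 and Psmf1, had 0.45 and 0.30 (all genes 0.34 and 0.29). The 2 genes under 5, Psma8 and Psmb11, had a median difference of -0.043 and an SD of 0.13 (all genes -0.13 and 0.19). The bright core and base subunits gave the narrow intervals, and the chaperones, Psme2 and Psmf1 the wide ones.

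**Figure D4:**
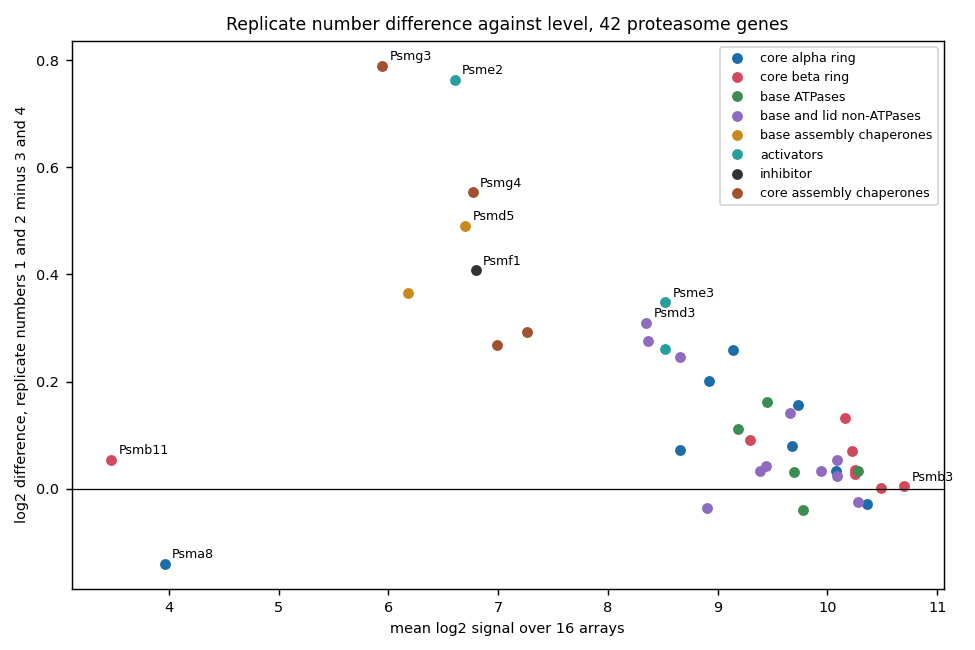
Mean log2 signal of replicates 1 and 2 minus that of replicates 3 and 4 (vertical axis) against the mean over 16 arrays (horizontal axis) for the 42 genes, coloured by role. Differences reach 0.79 for Psmg3 and 0.76 for Psme2 at means between 5 and 7.5 and stay close to 0 for the brightest, such as Psmb3; Psma8, under 5, is at -0.14.

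Genes around the proteasome were read from lists. Nfe2l1, the factor known to restore proteasome genes when the protease is impaired, read 8.99, 8.93, 8.51 and 8.76 in young control mice, 8.92, 8.90, 8.87 and 8.67 in young KO mice, 9.06, 8.98, 8.91 and 8.94 in old control mice and 9.10, 9.04, 8.98 and 8.88 in old KO mice. Young and old overlapped, and the difference with age over both genotypes was 0.17 ± 0.073 (SE; with the block SE 0.0545, unadjusted p = 0.00823 and adjusted p = 0.224). In the list of 6 measured genes of the NRF1 pathway (of 8), 5 were higher and 1 lower with age, with a median of 0.069, 0 were called, and Nfe2l1 was the 1 with an unadjusted p under 0.05 (3.52% of all genes). In the list of 15 measured proteasome-associated factors (of 21), 6 were higher and 9 lower with age, with a median of -0.031, and 0 were called with or without the block in any of the 7 comparisons; Pomp was the 1 gene with an unadjusted p under 0.05 with age over both genotypes. Of the 10 measured genes of ubiquitin and its activation (of 15), 9 were lower in old KO than in old control mice, with a median of -0.044, and 0 were called; 0 had an unadjusted p under 0.05 (1.14% of all genes), and 1 with the block (Ube2n, a ubiquitin-conjugating enzyme; 6.62% of all genes).

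In the NRF2 list 8 of 10 measured genes (of 12) were higher in old KO than in old control mice, with a median of 0.095, and 0 were called in that or the other 6 comparisons. In old mice by genotype 1 of them had an unadjusted p under 0.05 (1.14% of all genes), and 4 with the block (6.62%). Srxn1, which reduces oxidised peroxiredoxins, differed by 0.85 ± 0.17 (SE) in old mice by genotype and by 0.85 ± 0.17 with age in KO mice. With the block its SE was 0.16 in both. Limma with the block gave an unadjusted p of 9.05e-05 and an adjusted p of 0.38 for genotype, and an adjusted p of 0.0714 for age. Without the block the limma adjusted p for age was 0.318. Nfe2l2 itself differed by 0.32 in old mice by genotype, with an SE of 0.20 without the block and 0.087 with it. Its limma p with the block was 0.00213 unadjusted and 0.637 adjusted. The 42 proteasome genes had the median of -0.020 given above, and a relation between the NRF2 list and these genes was not tested.

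Of the 16 genes of muscle atrophy ligases and their regulators, all measured, 13 were higher and 3 lower with age over both genotypes, with a median of 0.089; 0 were called, 1 had an unadjusted p under 0.05, and 5 with the block (0.0585% of all genes were called in that comparison, and 3.52% and 11.7% had such a p). Trim63 (MuRF1), a ubiquitin ligase of the sarcomere, differed by 0.51 ± 0.17 (SE; limma adjusted p = 0.843), and Fbxo32 (atrogin-1) by 0.20 ± 0.098. With the block limma gave SEs of 0.12 and 0.075, unadjusted p of 0.00108 and 0.017, and adjusted p of 0.0949 and 0.288. The median of the 42 proteasome genes with age was 0.0011 in the same fit.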

How the data were processed

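RNA of 16 quadriceps muscles was amplified from 25 ng and hybridised to Affymetrix arrays, per the labels' protocols. The deposited values are log2 signals made with RMA and the affy package, per the submitters' processing notes (versions not given in the sources used here). Without the 104 control probe sets, 28898 probe sets had 1 gene symbol, 551 several and 15588 none; the brightest per gene gave 17097 genes. Differences were tested with limma 3.58.1 in R 4.3.3 (lmFit and eBayes with trend, all arrays in 1 fit, 1 mean per group, two-sided, Benjamini-Hochberg over all genes, threshold 0.05), and the procedure was tested on simulated data. Figures were drawn with matplotlib 3.10.9.

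Deviations from group means correlated between arrays of one replicate number in each of 24 pairs (r from 0.289 to 0.78, median 0.677). Between other numbers the median r was -0.455. The fit with the number as a block is therefore given too, although the labels do not say what the number stands for. Each ± SE is from the fit without the block, so a p given with the block does not follow from the ± SE beside it. Values in every mouse are given for Psmb5, Psmb6 and Psmb7, the genes with the highest and lowest mean, genes whose groups do not overlap, and the 3 genes per direction with the smallest p in each comparison. The members and lists were chosen with earlier results of these data known. Alternatives were the block, eBayes without trend, the mean of probe sets, a level filter, median centring, a further quantile normalization, family or the 3′ minus 5′ signal of the pyruvate carboxylase control as covariates, and leaving out each mouse or the replicates numbered 3. The level filter or the centring together with the block, and the interferon-stimulated response element, were chosen after seeing the data. Without the block the p-values measure the spread between single mice of a group, which includes differences between replicate numbers. With the block they measure the spread left after those differences are removed. Mice of one number deviated together, so the fit without the block treats as independent mice that were not.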

Additional observations from a re-analysis of the deposited data

Results flagged for a closer look

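In 10 of 180 groups of 4 mice (42 standard proteasome genes and 3 inducible subunits in 4 groups each) 1 mouse stood apart from the other 3 by Dixon's 95% limit, and chance alone flags about 1 in 20 groups. Among the alpha subunits Psma6 read 9.96 in young control replicate 4, with the next mouse at 10.11, and Psma8 read 4.13 in young control replicate 3, with the next at 3.93. Psmb4 read 10.21 in young control replicate 1, only slightly below the next at 10.23. Among the non-ATPases Psmd6 read 10.14 in young KO replicate 1 (next 10.09), Psmd7 read 10.06 in young control replicate 3 (next 9.93), Psmd8 read 8.95 in young control replicate 4 (next 9.48) and Psmd11 read 9.88 in old control replicate 1 (next 9.64). The base chaperone Psmd9 read 5.83 in young KO replicate 3 (next 6.30). Of the activators, Psme1 read 8.67 in old control replicate 2 (next 8.35), and Psme3 read 8.15 in old KO replicate 3 (next 8.65). No gene of the 45 had an interaction of age and genotype that passed the limma test (lowest adjusted p = 1 without the block).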

How the results depend on the processing

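The count of standard proteasome genes called was 0 in 299 of 301 refits over the 7 comparisons, the replicate block among them. The other refits gave 1 gene for age over both genotypes, Psmg1 in both: with the block on genes above the median level (added after seeing the data; -0.25, adjusted p = 0.0467) and with the block without young control replicate 2 (-0.29, adjusted p = 0.0369), so leaving out 1 mouse gave counts from 0 to 1. Over single mice left out, Psmg1's blocked difference with age ran from -0.29 to -0.23. The block changed no other call. Median differences of the 42 genes stayed between -0.058 and 0.046 over 10 settings per comparison and between -0.075 and 0.068 with 1 mouse left out. Differences between an inducible and a standard subunit that were close to 0 changed sign: Psmb9 minus Psmb6 with age in control mice became 0.020 with the mean of probe sets (exact p = 0.6) and ran from -0.089 to 0.042 with 1 mouse left out. The mean of probe sets also lowered the differences of old KO mice from old control mice, to 0.44 for Psmb9 minus Psmb6 and 0.64 for Psmb8 minus Psmb5, and from young KO mice, to 0.47 and 0.58. The other probe set of Psmb8 is near the array's floor. The other ranges with 1 mouse left out were -0.091 to 0.040 for Psmb9 minus Psmb6 by genotype in young mice, -0.10 to 0.35 for Psmb8 minus Psmb5 by genotype in young mice and -0.20 to 0.31 with age in control mice, and -0.097 to 0.065 for Psmb10 minus Psmb7 by genotype in young mice. The cause was not tested. With 4 mice per group the chaperones, Psme2 and Psmf1 had intervals past 1.5-fold in places, and signals near the array's floor (Psma8, Psmb11) understate differences.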
